A study of Homo sapiens with 12 samples.

Results

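The interaction of genotype and bleomycin is a difference of differences: the change that bleomycin brought in ANT1 knockout cells minus the change it brought in wild type cells, gene by gene, on the log2 scale. A value of 0 means that both genotypes changed by the same fold, and a value of -1 means that the fold change was 2 times smaller in the knockout. The contrast was taken from the deposited gene counts and uses all 12 libraries of the series, in 4 groups of 3. The cells were Beas-2b, an immortalised line of human bronchial epithelium. The groups were wild type in medium, wild type with bleomycin, ANT1 knockout in medium and ANT1 knockout with bleomycin, the drug being labelled as 10 mg/ml over 2 days. The knockout was made by CRISPR, and the series' design text calls the libraries of a group biological replicates. No source used here says how many knockout clones these were, and a clone's own traits cannot be told apart from the genotype. The series' title places the work in a study of ANT1 in lung fibrosis.

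ANT1, encoded by SLC25A4, is an adenine nucleotide translocase: it carries ATP out of the mitochondrial matrix in exchange for ADP, a task it shares with the paralogs SLC25A5 and SLC25A6. Bleomycin cuts DNA and is the classic agent for producing lung fibrosis in animals. Broken DNA activates the kinase ATM, which stabilises the transcription factor p53. In turn p53 switches on genes that stop the cell cycle (CDKN1A), repair or remake DNA precursors (XPC, RRM2B), promote cell death (BBC3, FAS) and shut p53 down again (MDM2), and lasting arrest with a secretory programme is known as senescence.

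A single library stood apart and takes part in every interaction value. In knockout control replicate 2, mitochondrially encoded genes held 0.364% of the counts, and in the 11 others they held 3.86% to 5.13%. Compared with knockout control replicates 1 and 3 it gave a mean chi-square per gene of 114 and 106, and the remaining pairs within a group gave 2.89 to 17.1. Interaction values are therefore given with all 12 libraries and without this library, and its part in the results was otherwise not tested. Library totals ran from 15.75 to 21.92 megacounts, and levels are given as CPM, counts per megacount of the library, scaled by TMM factors. Of 58735 genes in the table, 16702 passed the filter on low counts and were tested.

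The knockout was seen in the RNA of the targeted gene. SLC25A4 stood at 22.8, 16.6 and 18.3 CPM in wild type medium and at 16.1, 22.4 and 27.5 CPM in wild type with bleomycin. The knockout libraries had 5.08, 6.97 and 4.81 CPM in medium and 4.70, 4.09 and 5.0 CPM with bleomycin, and no knockout library reached any wild type library. With all libraries, the knockout was 3.42-fold lower in medium (adjusted p = 0.0111) and 4.78-fold lower with bleomycin (adjusted p = 0.000904, both edgeR). With knockout control replicate 2 left out, it was 3.88-fold lower (adjusted p = 0.000338) and 4.78-fold lower (adjusted p = 2.03e-05). The interaction of SLC25A4 was -0.48 (SE 0.30) with all libraries and -0.30 (SE 0.29) without that library, within the noise in both fits. For SLC25A5 it was 0.12 (SE 0.15) and 0.09 (SE 0.13), and for SLC25A6 0.14 (SE 0.15) and 0.23 (SE 0.12). The 95% interval without that library ran from -0.18 to 0.36 for SLC25A5 and from -0.01 to 0.48 for SLC25A6.

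Both genotypes answered bleomycin on a broad scale, and few or no genes were called for the difference between the answers. That difference also had the wider error. With all libraries its median SE was 0.25 on the log2 scale, against 0.18 for either response. With all 12 libraries, 7262 genes changed in wild type cells (43.5% of those tested) and 7219 in knockout cells (43.2%) at an adjusted p under 0.05 by edgeR's quasi-likelihood test. Without knockout control replicate 2 these counts were 9556 (57.2%) and 8205 (49.1%). With all libraries, the interaction passed that threshold for 0 genes (0%), with a smallest adjusted p of 0.351. At an unadjusted p under 0.05 there were 770 genes, 4.61% of those tested. DESeq2 called 4 genes on the same counts, AEN, CDKN1A, GDF15 and MDM2, each with the smaller response in the knockout, and limma-voom called 0 with 769 genes at an unadjusted p under 0.05.

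Without knockout control replicate 2, 7 genes passed (0.0419% of those tested), and each had the smaller response in the knockout: INPP5D, AKAP9, CDKN1A, THBD, CAVIN2, CYFIP2 and GALNT5. The unadjusted count rose to 1318 genes (7.89%), 640 above 0 and 678 below. The median SE of a gene's interaction was 0.25 with all libraries and 0.17 without that library, on the log2 scale. Correspondingly, the 95% interval lay inside -1 to 1 for 63.0% of genes in the first fit and for 70.0% in the second, and inside -0.5 to 0.5 for 26.0% and 45.8%.

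CDKN1A encodes p21, the cyclin-dependent kinase inhibitor through which p53 arrests the cell cycle. Its level was 85.4, 92.5 and 95.8 CPM in wild type medium and 4637, 4608 and 4761 CPM in wild type with bleomycin. In the knockout it was 154, 136 and 135 CPM in medium and 3960, 4348 and 4147 CPM with bleomycin. The knockout libraries were thus all above the wild type libraries in medium and all below them under the drug. The rise was 51.2-fold in wild type and 29.2-fold in knockout cells, an interaction of -0.81 (SE 0.13, adjusted p = 0.351 by edgeR). Its value was -0.83 (SE 0.12, adjusted p = 0.00885) without knockout control replicate 2, so the value held and its call changed. In CPM, CDKN1A rose by 4577 (SE 47.0) in wild type cells and by 4010 (SE 112) in knockout cells.

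INPP5D encodes SHIP1, a lipid phosphatase that removes a phosphate from the PI3-kinase product PIP3 and is best known from blood cells. Wild type cells had 0.865, 1.36 and 1.41 CPM in medium and 63.7, 75.1 and 71.5 CPM with bleomycin. Knockout cells had 4.95, 1.49 and 3.77 CPM in medium and 65.3, 66.5 and 71.7 CPM with bleomycin. Levels under the drug overlapped between genotypes, and the library at 1.49 CPM, the closest to wild type, was knockout control replicate 2. The interaction was -1.54 (SE 0.41, adjusted p = 0.899) with it and -1.88 (SE 0.22, adjusted p = 0.000888) without it, both by edgeR.

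The promoters of a few genes of the contrast are shown for their composition only. Each line gives the 150 bases before the start of the RefSeq entry on GRCh38.p14, 5′ to 3′ on the gene's strand. CDKN1A and INPP5D were among the 7 genes, and AEN and GDF15 were called by DESeq2. All 4 genes lie on the plus strand, and the windows are chr6:36678564-36678713 for CDKN1A, chr2:233060192-233060341 for INPP5D, chr15:88621190-88621339 for AEN and chr19:18386008-18386157 for GDF15. Each line marks a single motif in capitals: GC boxes (GGGCGG) in CDKN1A, a p53 half-site match in AEN and a TATA box (TATAAA) in GDF15. The line of INPP5D was to mark GC boxes and has no capitals because it held none here. Other matches stay in lower case, among them GC and CCAAT boxes in both AEN and GDF15.
CDKN1A: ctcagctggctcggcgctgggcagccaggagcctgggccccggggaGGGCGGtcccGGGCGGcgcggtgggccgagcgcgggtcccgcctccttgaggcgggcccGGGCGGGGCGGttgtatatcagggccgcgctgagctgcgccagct
INPP5D: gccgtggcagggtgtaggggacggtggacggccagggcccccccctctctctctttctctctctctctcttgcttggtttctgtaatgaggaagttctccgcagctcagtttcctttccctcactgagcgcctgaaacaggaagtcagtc
AEN: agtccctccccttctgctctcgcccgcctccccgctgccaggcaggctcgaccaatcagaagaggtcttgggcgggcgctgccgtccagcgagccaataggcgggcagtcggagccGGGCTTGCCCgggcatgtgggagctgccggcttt
GDF15: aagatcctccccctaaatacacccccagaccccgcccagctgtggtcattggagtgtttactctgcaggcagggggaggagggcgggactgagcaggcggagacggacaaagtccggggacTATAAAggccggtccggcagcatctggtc
CDKN1A held 4 GC boxes, of which the last pair overlap. Searched on both strands over 250 bases before the start, a GC box occurred in 42.6% of 35116 RefSeq promoter entries, a p53 half-site in 5.57%, a TATA box in 10.7% and a CCAAT box (CCAAT) in 32.0%. The 7 genes had 7 entries for 5 genes: a GC box was found for AKAP9, CDKN1A and CYFIP2, a p53 half-site and an overlapping TATA box for AKAP9, and a CCAAT box for 0. A match is a run of letters and not a measured site, and the binding of any factor was not measured here.

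AKAP9 encodes a large scaffold that anchors protein kinase A at the centrosome and Golgi. Its levels were 48.7, 48.4 and 45.4 CPM in wild type medium against 128, 136 and 122 CPM with bleomycin. Knockout cells had 71.7, 44.7 and 71.0 CPM in medium and 104, 114 and 123 CPM with bleomycin. Knockout control replicate 2, at 44.7 CPM, lay below every wild type library, while the other knockout control libraries lay above them. The interaction of AKAP9 was -0.57 (SE 0.21) with all libraries and -0.76 (SE 0.11, edgeR adjusted p = 0.00555) without that library.

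THBD encodes thrombomodulin, the surface receptor that turns thrombin towards activating protein C. It stood at 14.6, 15.2 and 13.4 CPM in wild type medium and 67.6, 72.5 and 58.4 CPM with bleomycin, and in the knockout at 23.2, 35.3 and 23.6 CPM in medium and 65.9, 60.8 and 63.9 CPM with bleomycin. Here knockout control replicate 2 was the highest of its group. The interaction was -0.99 (SE 0.21) with it and -0.76 (SE 0.13, edgeR adjusted p = 0.0290) without it.

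CYFIP2, a subunit of the WAVE complex that drives branched actin, went from 4.83, 4.36 and 4.05 CPM to 270, 276 and 254 CPM in wild type cells. In the knockout it went from 8.82, 5.47 and 6.89 CPM to 256, 249 and 271 CPM, so that only the control groups stood apart. Its interaction was -0.72 (SE 0.19) with all libraries and -0.87 (SE 0.15, edgeR adjusted p = 0.0290) without knockout control replicate 2. CAVIN2, a coat protein of caveolae, rose from 7.58, 8.13 and 8.05 CPM to 22.2, 21.0 and 23.0 CPM in wild type and from 13.1, 11.1 and 14.4 CPM to 20.9, 20.9 and 22.2 CPM in knockout cells. GALNT5, which starts O-linked sugar chains on proteins, rose from 3.82, 3.31 and 4.43 CPM to 81.5, 74.3 and 83.4 CPM in wild type and from 7.07, 5.29 and 6.89 CPM to 76.0, 77.0 and 84.5 CPM in knockout cells. Both repeated the arrangement of CYFIP2: control groups apart, bleomycin groups overlapping. Without that library, the interaction was -0.84 (SE 0.14, edgeR adjusted p = 0.0290) for CAVIN2 and -0.87 (SE 0.16, adjusted p = 0.0471) for GALNT5.

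**Figure D1:**
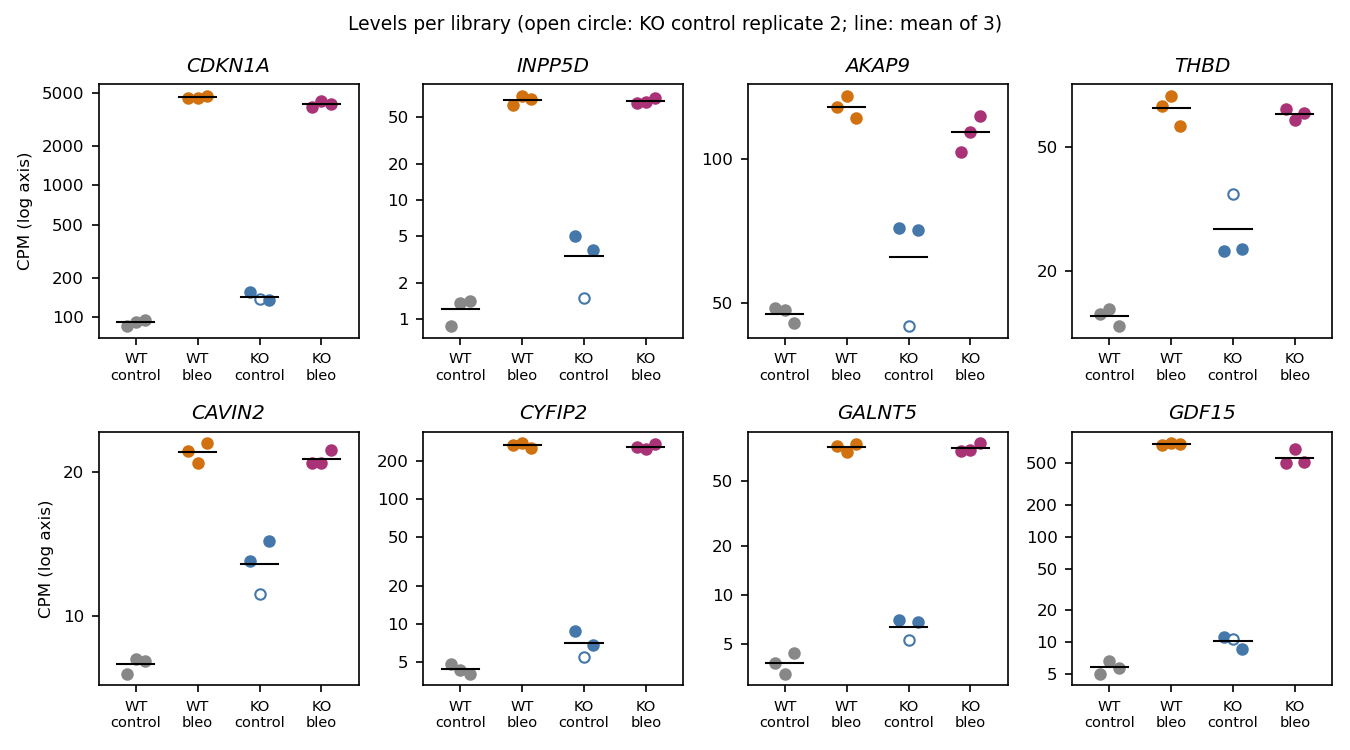
Level of the 7 genes called without knockout control replicate 2, and of GDF15, in each of the 12 libraries (CPM, log axis), by genotype (WT, KO) and treatment. Points are libraries, lines are means of 3 and the open circle is knockout control replicate 2; except for AKAP9, each knockout control library lies above all wild type control libraries.

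In all 7 genes the smaller fold came with a higher starting level. Leaving out knockout control replicate 2, the knockout exceeded wild type in medium by 0.59 (AKAP9) to 1.83 (INPP5D) on the log2 scale, with edgeR adjusted p from 0.000113 to 0.00214, and 168 of all tested genes (1.01%) were called in that comparison. Under bleomycin the same difference ran from -0.18 (AKAP9) to -0.01 (GALNT5) and was called for none of the 7, with adjusted p from 0.247 to 0.974, while 294 of all genes (1.76%) were called there. These comparisons share their libraries with the interaction and are its components, so they describe its shape and add no separate support.

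p53 target genes rose in both genotypes, and for 27 of 32 the fitted response was smaller in the knockout. Of the listed targets, all of which were tested, 31 were called higher with bleomycin in wild type (background 23.9%) and 31 in knockout cells (background 22.5%), with median responses of 3.17 and 2.67 on the log2 scale. The counts without knockout control replicate 2 were again 31 and 31 (background 30% and 26.1%), with 1 called lower in each (background 27.2% and 23.1%). PLK2, a stress kinase, was the exception at -0.32 in wild type and -0.11 in knockout cells. The interaction was below 0 for 27 of the 32, with a median of -0.28, when 54.3% of all tested genes were below 0 with a median of -0.03. Without knockout control replicate 2, 29 of 32 were below 0 with a median of -0.31, against 49.6% and 0.00 for all genes, and CDKN1A was the only target called. Strongly induced genes in general had low values too. For all tested genes whose mean response of both genotypes was 2 to 3 or 3 to 4, the median was -0.20 or -0.28. Of those genes, 63.8% or 65.2% were below 0. In the second fit the medians were -0.14 and -0.28, with 62.5% and 66.7% below 0. Relative to the mean of wild type medium, the median target stood at 3.14 to 3.20 on the log2 scale in the wild type bleomycin libraries and at 2.90 to 3.07 in those of the knockout, and in medium at -0.01 to 0.01 and 0.17 to 0.29.

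GDF15, a secreted stress cytokine of the TGF-beta family, had the lowest value on that list. It rose from 5.04, 6.67 and 5.62 CPM to 743, 773 and 758 CPM in wild type and from 11.3, 10.8 and 8.58 CPM to 498, 681 and 515 CPM in knockout cells. Like CDKN1A, it was higher in every knockout control library and lower in every knockout bleomycin library than in wild type. The interaction was -1.24 (SE 0.21, edgeR adjusted p = 0.351) with all libraries and -1.20 (SE 0.21, adjusted p = 0.0578) without knockout control replicate 2, and DESeq2 put it past the threshold with all libraries. MDM2, which tags p53 for destruction, rose from 78.0, 82.5 and 79.7 CPM to 2363, 2538 and 2231 CPM in wild type and from 110, 103 and 101 CPM to 1887, 2116 and 2064 CPM in knockout cells. It showed the same crossing of levels, with an interaction of -0.62 (SE 0.13) and of -0.63 (SE 0.12, edgeR adjusted p = 0.0525) without that library.

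RRM2B, the p53-induced subunit of ribonucleotide reductase, had an interaction of -0.50 (SE 0.12) with all libraries and -0.56 (SE 0.10, edgeR adjusted p = 0.0503) without knockout control replicate 2. Its level lay between 32.4 and 32.9 CPM in wild type medium and between 287 and 313 CPM with bleomycin, and in the knockout between 34.7 and 40.1 CPM and between 224 and 255 CPM. The control groups and the bleomycin groups each stood apart. AEN, an exonuclease of p53-dependent death, was at -0.51 (SE 0.11) and -0.49 (SE 0.10), and XPC, a DNA damage sensor of excision repair, at -0.35 (SE 0.11) and -0.39 (SE 0.10). The death genes BBC3 (PUMA) and FAS were at -0.64 and -0.15 with all libraries and at -0.48 and -0.31 without that library.

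Several p53 targets were high in knockout control replicate 2 alone, and their interaction shrank without it. GADD45A, a growth arrest gene, was at 82.8, 189 and 80.7 CPM in the knockout controls, and its interaction went from -1.07 (SE 0.36) to -0.55 (SE 0.11). PHLDA3, a repressor of AKT, was at 46.9, 114 and 47.9 CPM there and went from -0.88 (SE 0.37) to -0.33 (SE 0.10). FDXR, the ferredoxin reductase of mitochondria, was at 32.8, 76.7 and 32.5 CPM and went from -0.80 (SE 0.35) to -0.27 (SE 0.10). BAX, SESN2 and POLH lay within 0.10 of 0 without that library, and TIGAR, at 0.21 (SE 0.32), had the highest value of the list.

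**Figure D2:**
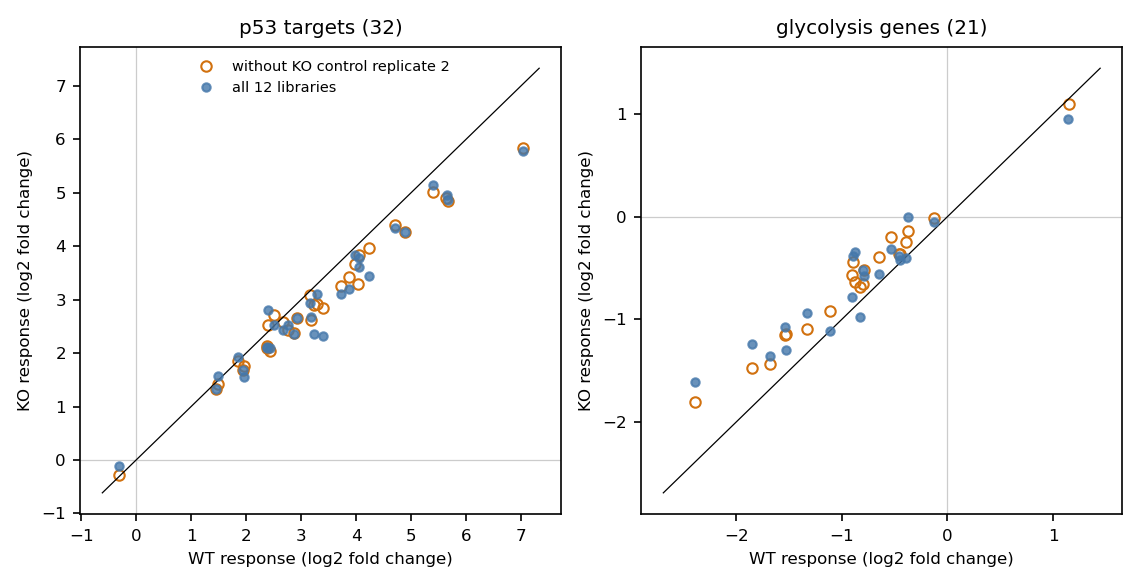
Bleomycin response of knockout cells (vertical) against that of wild type cells (horizontal), both as log2 fold change, for the 32 p53 targets and the 21 glycolysis genes, with all 12 libraries (filled) and without knockout control replicate 2 (open). The line marks equal responses; p53 targets lie mostly below it and glycolysis genes, which mostly fell, mostly above it.

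The larger the response, the further the interaction lay from 0 towards a smaller change in the knockout. Tested genes were binned by the mean of the responses of both genotypes. With all libraries, the median interaction was 0.12 in 126 genes with a mean response below -2, -0.02 in 7313 genes between -1 and 0, -0.09 in 1116 genes between 1 and 2, -0.28 in 253 genes between 3 and 4, and -0.51 in 414 genes at 4 or above. Without knockout control replicate 2 the ends were 0.22 (115 genes) and -0.48 (420 genes). The quartiles in the top bin, -1.26 and 0.49 in that second fit, span 0, so single genes there went both ways. Some genes at the top started from few counts: ABCA13, a lipid transporter, had 2 counts over all wild type control libraries and 21 over all knockout ones, against 1827 and 1256 with bleomycin, and no fold is given for it.

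**Figure D3:**
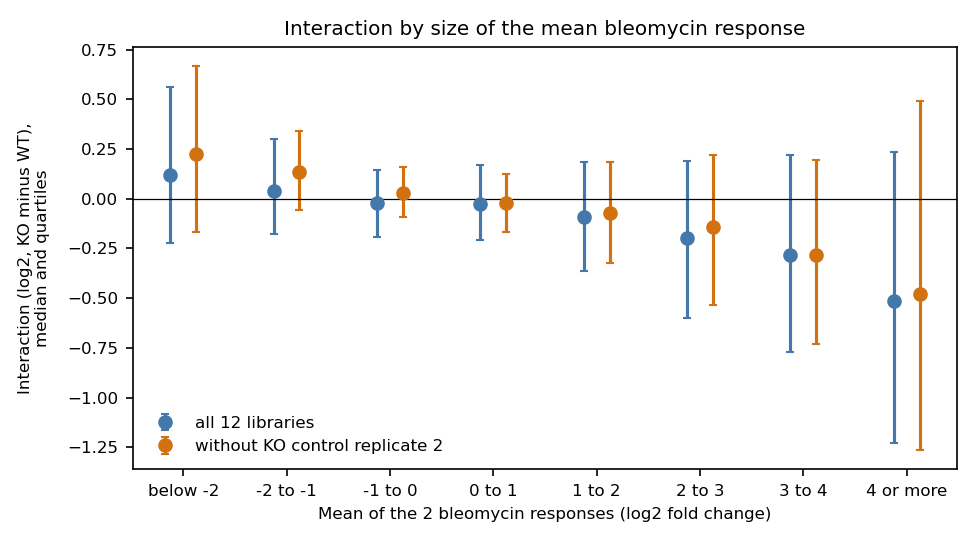
Median interaction (log2, points) and quartiles (bars) of tested genes in 8 bins of the mean bleomycin response of both genotypes, with all 12 libraries and without knockout control replicate 2. The median runs from 0.12 and 0.22 where genes fell most to -0.51 and -0.48 where they rose most, with quartiles that include 0 in every bin.

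Genes of glycolysis, which split glucose for ATP in the cytosol, fell with bleomycin in both genotypes, and the fitted change was nearer 0 in the knockout for most. Of 21 tested, 19 were called lower in wild type (background 19.6%) and 16 in knockout cells (background 20.7%), with median responses of -0.83 and -0.56. In the fit without knockout control replicate 2, 19 and 17 were called lower (background 27.2% and 23.1%). The interaction was above 0 for 17 of 21, with a median of 0.22. Without knockout control replicate 2 it was above 0 for 20 of 21, with a median of 0.24. None of the 21 was called. Of all tested genes, 54.3% were below 0 with all libraries and 49.6% without that library. For those with a mean response of -1 to 0, 53.1% and 44.0% were below 0, with medians of -0.02 and 0.03. For those of -2 to -1, 43.9% and 31.4% were below 0, with medians of 0.04 and 0.14.
HK2, the inducible hexokinase, was at 172, 156 and 166 CPM in wild type medium and 58.1, 57.6 and 55.4 CPM with bleomycin. In the knockout it was at 136, 187 and 138 CPM in medium and 65.7, 59.1 and 61.9 CPM with bleomycin. The knockout bleomycin libraries were all above those of wild type, and the control groups overlapped through knockout control replicate 2. Its interaction was 0.22 (SE 0.16) with that library and 0.39 (SE 0.10, edgeR adjusted p = 0.205) without it. ALDOC, a glycolytic aldolase, had the highest value of the list, 0.78 (SE 0.28) and 0.58 (SE 0.22) in the same order, GPI was at 0.61 and 0.38, and PGK1 at 0.46 and 0.38. The exception without that library was PFKFB4, at -0.05 (SE 0.32), which makes the activator of phosphofructokinase and rose in both genotypes.

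Genes induced by hypoxia-inducible factors overlap with glycolysis in their control. They had a median interaction of 0.11 over 17 members, and 0.19 without knockout control replicate 2, when 15 of 17 were above 0. In that second fit 49.6% of all tested genes were below 0, and 44.0% of those with a mean response of -1 to 0. CA9, the carbonic anhydrase that is a marker of hypoxic cells, led the list. It fell from 149, 96.0 and 131 CPM to 3.30, 3.10 and 2.99 CPM in wild type, and from 91.3, 215 and 98.5 CPM to 6.73, 4.89 and 4.73 CPM in knockout cells. The knockout bleomycin libraries were all above the wild type ones, and knockout control replicate 2 was the highest of all. The interaction was 0.68 (SE 0.46) with that library and 1.18 (SE 0.29, edgeR adjusted p = 0.305) without it. ANGPTL4, a lipase inhibitor that rose with bleomycin, had the lowest value, -0.73 (SE 0.37) and -0.58 (SE 0.43).

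Ligands of the EGF receptor family are released by epithelial cells on injury. With bleomycin, 7 of 11 tested ligands and receptors were called higher in each genotype (background 23.9% in wild type and 22.5% in knockout cells). In each, 2 were called lower (background 19.6% and 20.7%). When knockout control replicate 2 was left out, 8 and 7 were called higher (background 30% and 26.1%) and 2 lower in each (background 27.2% and 23.1%). In either fit 7 had an interaction below 0, with a median of -0.08 with all libraries and -0.11 without knockout control replicate 2. Of all tested genes, 54.3% and 49.6% were below 0. The lowest values on the list were -1.48 and -1.91 in the same order, below those of AREG. AREG, amphiregulin, rose from 3.36, 3.77 and 3.14 CPM to 245, 266 and 255 CPM in wild type and from 7.67, 5.35 and 6.12 CPM to 166, 276 and 195 CPM in knockout cells. Its control groups stood apart and its bleomycin groups overlapped. The interaction was -1.16 (SE 0.26) with all libraries and -1.26 (SE 0.34, edgeR adjusted p = 0.403) without that library. HBEGF was at -0.79 (SE 0.19) and -0.60 (SE 0.12), NRG1, which signals through ERBB3 and ERBB4, at -0.75 (SE 0.20) and -0.73 (SE 0.19), while TGFA was at -0.08 (SE 0.13) and -0.11 (SE 0.12). The receptors EGFR and ERBB2 were at 0.12 and 0.12 with all libraries and at 0.00 and 0.20 without that library. Feedback inhibitors of ERK, a kinase below these receptors, had a median of -0.28 over 12 genes and of -0.14 without that library, with SPRY4 lowest at -1.14 (SE 0.28) and -1.05 (SE 0.29).

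The secretory genes of senescent cells were listed as 38 genes, of which 36 were tested, and 28 were called higher with bleomycin in each genotype (background 23.9% and 22.5%) and 5 lower (background 19.6% and 20.7%). In the fit of 11 libraries, 29 were called higher in wild type (background 30%) and 30 in knockout cells (background 26.1%), and 6 and 5 lower (background 27.2% and 23.1%). Their interaction had a median of -0.17, and of -0.10 without knockout control replicate 2, with 26 and 25 of 36 below 0. Of all tested genes, 54.3% and 49.6% were below 0. Among all those with a mean response of 2 to 3, 63.8% and 62.5% were below 0, with medians of -0.20 and -0.14. IL11, a cytokine tied to fibrosis, was at -0.91 (SE 0.24) and -0.69 (SE 0.19). The interleukin IL6 was at -0.33 (SE 0.26) and -0.21 (SE 0.31), CXCL8 at 0.12 (SE 0.18) and 0.14 (SE 0.17), and IL1B at 0.06 (SE 0.28) and -0.13 (SE 0.25). CXCL2, a neutrophil chemokine, was at 0.54 (SE 0.18) and 0.49 (SE 0.17). The highest value of the list belonged to CCL20, a lymphocyte chemokine, at 2.17 (SE 0.95) and 2.20 (SE 1.03), which had 1.48 CPM or less in every library. IGFBP7, a secreted binding protein, moved with that library, from -1.15 (SE 0.56) to -0.21 (SE 0.12), having 216, 801 and 210 CPM in the knockout controls. NF-kB subunits and feedback genes, which govern many inflammatory cytokines, had medians of 0.05 and 0.16 over 15 genes.

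Targets of TGF-beta, the main fibrotic cytokine, had a median interaction of -0.23 over 20 genes with all libraries and of -0.01 without knockout control replicate 2. COL1A1, the chain of type I collagen, changed sign, from -0.85 (SE 0.79) to 0.48 (SE 0.43), and the 95% interval of both values includes 0. ACTA2, the smooth muscle actin that marks myofibroblasts, was at -0.87 (SE 0.27) and -0.83 (SE 0.27). Matrix genes had medians of -0.02 and 0.12 over 30 genes, and integrins and laminins -0.11 and -0.05 over 19.

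Mitosis genes fell in both genotypes, with a median interaction near that of all genes. Of 28 mitosis genes, 27 were called lower in wild type (background 19.6%) and 26 in knockout cells (background 20.7%), or 27 and 27 without knockout control replicate 2 (background 27.2% and 23.1%). Their median interaction was 0.10, or 0.03 without knockout control replicate 2. PLK1, the kinase that drives mitotic entry, fell from 178, 187 and 174 CPM to 23.4, 22.3 and 24.7 CPM in wild type and from 152, 139 and 160 CPM to 27.5, 28.2 and 27.0 CPM in knockout cells. The groups of PLK1 did not overlap in either condition and crossed in the opposite sense to CDKN1A, with an interaction of 0.48 (SE 0.12) and of 0.43 (SE 0.10, edgeR adjusted p = 0.154) without that library. CENPE, a kinesin of the kinetochore, was the lowest of the list at -0.46 (SE 0.19) and -0.57 (SE 0.15). Of the 8 CDK inhibitors, 7 besides CDKN1A lay between -0.48 and 0.36 with all libraries and between -0.20 and 0.56 without that library. CDKN2A, the p16 gene, was at -0.48 (SE 0.40) and 0.14 (SE 0.10). DNA replication genes had medians of -0.05 and -0.04 over 30 genes, recombination repair genes -0.11 and -0.07 over 16, and the p53 family and its regulators, which include ATM at -0.19 (SE 0.13) and -0.23 (SE 0.11), -0.08 and -0.09 over 14.

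Interferon-stimulated genes, the antiviral programme, had higher fitted levels in the knockout in both conditions, by an amount that varied between libraries. All 34 were higher in the knockout in medium and all 34 with bleomycin, by a median of 0.91 and 0.66 on the log2 scale, with 2 and 0 called (background 0.108% and 0.00599%). The medians were 0.95 and 0.66 without knockout control replicate 2, with 4 and 2 called (background 0.659% and 0.934%). Their interaction had a median of -0.09 with 21 below 0, and of -0.18 with 28 below 0 without that library. Of all tested genes, 54.3% and 49.6% were below 0. The lowest single value of the list in the second fit was -0.56 (SE 0.51) for OAS2. Relative to the mean of wild type medium, the median member was at 1.05, 0.60 and 0.83 on the log2 scale in knockout medium. With bleomycin it was at 0.01, 0.89 and 0.28 in the knockout and at -0.15, -0.23 and -0.30 in wild type. Knockout bleomycin replicate 1 thus lay near wild type medium. HLA and antigen processing genes had medians of 0.06 and 0.07 over 16.

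Mitochondrially encoded genes shifted most of all lists between the fits. All 13 mitochondrially encoded messages had an interaction above 0 with all libraries, with a median of 0.71. Without knockout control replicate 2, 12 of 13 were above 0 with a median of 0.18. Of all tested genes, 54.3% and 49.6% were below 0 in the 2 fits. MT-ND4, a subunit of respiratory complex I, was at 7975, 288 and 6471 CPM in the knockout controls and at 6836 to 7573 CPM in the wild type controls. Its interaction was 0.73 (SE 1.01) and 0.18 (SE 0.16). Nuclear genes of oxidative phosphorylation had a median of 0.08 in both fits over 50 genes, the translocases and VDAC pores 0.03 and 0.09 over 7, and mitophagy genes -0.01 and 0.04 over 16. Cytosolic ribosomal protein genes, whose counts may be shared with near-identical copies, had medians of 0.26 and 0.15 over 76.

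**Figure D4:**
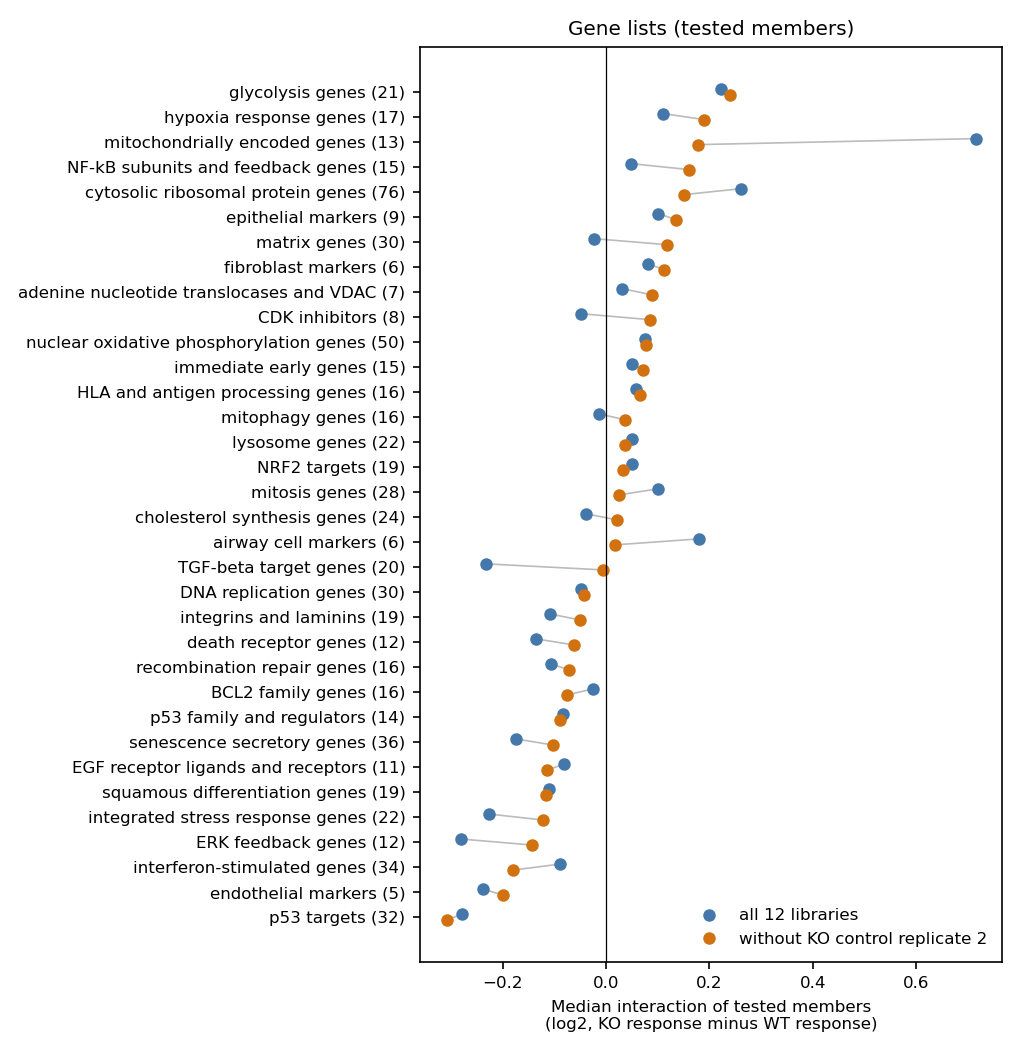
Median interaction (log2, horizontal) of the tested members of each gene list with at least 5 of them, with all 12 libraries and without knockout control replicate 2; the number of members is in brackets. p53 targets are lowest in the second fit at -0.31 and glycolysis genes highest at 0.24, and the mitochondrially encoded genes shift most between fits, from 0.71 to 0.18. All tested genes with a mean bleomycin response of 3 to 4 had a median of -0.28 in the second fit. Those with a mean response of -2 to -1 had 0.14, and those of -1 to 0 had 0.03.

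The remaining lists had no member called in either fit. Integrated stress response genes had medians of -0.23 and -0.12 over 22, with 17 below 0 in either fit. Of all tested genes with a mean response of 1 to 2, 60.8% and 59.3% were below 0, with medians of -0.09 and -0.07. BCL2 family genes had -0.03 and -0.08 over 16, with PMAIP1 (NOXA), a death-promoting member, at -0.73 (SE 0.21) and -0.55 (SE 0.15), and death receptor genes -0.13 and -0.06 over 12. Immediate early genes had 0.05 and 0.07 over 15, NRF2 targets 0.05 and 0.03 over 19, cholesterol synthesis genes -0.04 and 0.02 over 24, and lysosome genes 0.05 and 0.04 over 22. Squamous differentiation genes, of which 19 of 32 were tested, had medians of -0.11 and -0.12, and DSG3, a desmosomal cadherin, went from 5 counts over the wild type controls and 16 over the knockout controls to 1244 and 990 with bleomycin.

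Further genes that did not pass the threshold had interaction values on both sides of 0. TLR4, the receptor for bacterial lipopolysaccharide, had an interaction of -0.65 (SE 0.26) with all libraries and of -0.86 (SE 0.16, edgeR adjusted p = 0.0525) without it. NECTIN4, an epithelial adhesion molecule, was at -0.90 (SE 0.20) and -0.98 (SE 0.20), and ABCG1, a sterol exporter, at -0.92 (SE 0.18) and -0.97 (SE 0.20), both with an adjusted p of 0.0828 in the second fit. KITLG, the ligand of the receptor KIT, and JAG1, a Notch ligand, were at -0.57 (SE 0.12) and -0.55 (SE 0.13) with all libraries, and at -0.56 (SE 0.11, adjusted p = 0.0706) and -0.49 (SE 0.12, adjusted p = 0.170) without it. JAG1 differed in shape from the 7 genes: its control libraries overlapped at 17.1 to 19.5 CPM in wild type and 17.5 to 21.2 CPM in the knockout, and its bleomycin libraries stood apart at 113 to 123 and 79.9 to 86.5 CPM. On the other side, KLF2, a transcription factor of quiescence, was at 0.34 (SE 0.35) and 0.79 (SE 0.16, adjusted p = 0.0828), and TMEM158 at -0.04 (SE 0.48) and 0.70 (SE 0.13, adjusted p = 0.0578). Both were highest in knockout control replicate 2, KLF2 at 61.2 CPM against 28.9 and 29.1 CPM and TMEM158 at 137 CPM against 45.0 and 45.2 CPM. Across the table, 1106 genes moved by at least 0.5 and 4381 changed sign when that library was left out.

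**Figure D5:**
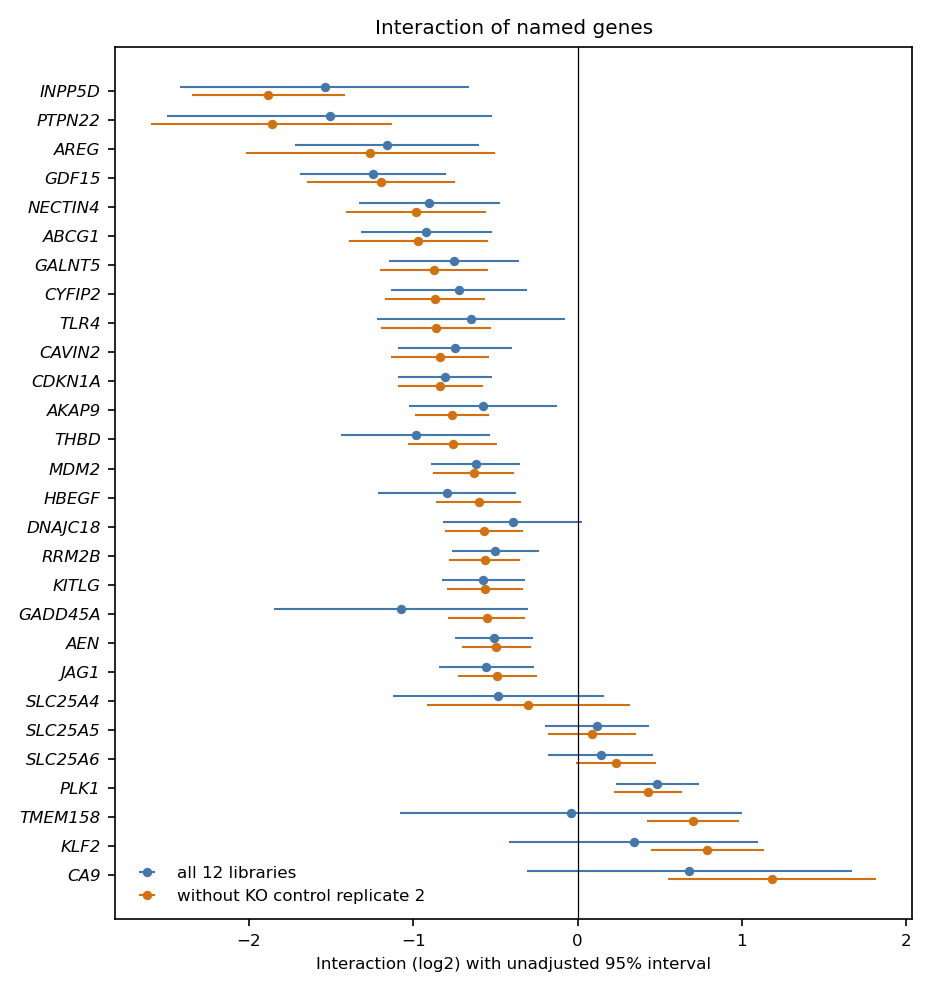
Interaction (log2, points) with unadjusted 95% intervals (bars) of 28 named genes, with all 12 libraries and without knockout control replicate 2. Intervals of the 7 called genes exclude 0 in both fits, and those of TMEM158, KLF2 and CA9 include 0 with all libraries and exclude it without the library.

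The label of the cells was checked against markers. KRT8 stood at 414 to 761 CPM and KRT18 at 117 to 309 CPM, but the epithelial adhesion genes EPCAM and CDH1 had only 13 to 40 and 9 to 50 counts per library, and COL1A1 ran from 463 to 3470 CPM. The leukocyte gene PTPRC had 0 to 8 counts and the endothelial gene PECAM1 0 to 6. Of 10 leukocyte markers only 1 had a mean over 1 CPM in each medium group and 2 in each bleomycin group, so their sum rests on few genes. The summed level of these 10 markers was 19.6 to 23.9 CPM in wild type medium, 30.0 to 41.0 CPM in knockout medium, and 7.83 to 8.75 and 7.42 to 11.5 CPM with bleomycin. That of 8 endothelial markers was 15.8 to 17.6, 16.3 to 26.2, 13 to 15.5 and 16.2 to 17.0 CPM in the same order. The 10 epithelial markers summed to 1410 to 1768, 1561 to 1658, 1474 to 1737 and 1631 to 1681 CPM. The 10 fibroblast markers summed to 2026 to 2433, 1870 to 4476, 1944 to 2020 and 1893 to 2088 CPM. The fibroblast sum was thus above the epithelial sum in every group. Of the fibroblast markers 5 or 6 had a group mean over 1 CPM, and of the epithelial markers 7 or 8. Airway cell markers summed to 4.37 to 6.67, 3.88 to 5.41, 11.9 to 14.0 and 11.7 to 13.3 CPM, and the median interaction of their 6 tested members was 0.18 and 0.02. Median interactions were 0.10 and 0.14 for 9 epithelial markers, 0.08 and 0.11 for 6 fibroblast markers, -0.24 and -0.20 for 5 endothelial markers. Of the leukocyte markers only CD14, at 0.11 (SE 0.33) and 0.26 (SE 0.29), and ITGAM passed the filter on low counts. ITGAM had 0 counts over the wild type controls and 255 over the knockout bleomycin libraries, and no fold of its response is given. It was called higher with bleomycin in both genotypes. Under the drug the knockout differed from wild type by -0.18 on the log2 scale with all libraries.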

How the data were processed

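Poly(A) RNA of 12 Beas-2b libraries was sequenced. The submitters' processing notes name HISAT2 2.0.5 and featureCounts 1.5.0-p3, and the authors deposited raw counts per gene. No source used here gives the build, the strand setting or a filter. Overlapping and antisense genes, and near-identical copies, are therefore uncertain. All 58735 identifiers occur in GENCODE 29 and 58690 have the same position there, on GRCh38. The deposited FPKM table was not used.

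Groups were taken from the labels. Counts were fitted with edgeR 4.0.16 (R 4.3.3): filterByExpr, TMM, glmQLFit with robust estimation, 4 group means, glmQLFTest, and Benjamini-Hochberg adjustment over 16702 genes at 0.05. The interaction and its 4 component contrasts came from 1 fit of 12 libraries, and from a second fit of 11 on the same genes. SE is the log2 value over the root of F. The procedure was tested on simulated data. DESeq2 1.42.0 and limma 3.58.1 (voom) served as alternatives, with other scalings and filters, a replicate block and left-out libraries.

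The genes named were to be the translocases, called genes by size and p, and for each of 35 lists its called members or, where there were none, its 2 members of highest CPM. As the fit of 12 libraries called none, INPP5D and the other genes called in the second fit, and further examples, were chosen after their values were seen. The contrast and the lists were chosen with earlier results of these data known, and some genes stand in several lists. Where a group reads 0, a count of up to 3 is allowed, which is 0.137 to 0.190 CPM over the libraries, for counting error only.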

Additional observations from a re-analysis of the deposited data

Results flagged for a closer look

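Without knockout control replicate 2, 7 genes differed in their bleomycin response between genotypes by edgeR's test of the difference itself, the log2 response of the knockout minus that of wild type, with adjusted p from 0.000888 to 0.0471. The values were -1.88 for INPP5D, -0.76 for AKAP9, -0.83 for CDKN1A, -0.76 for THBD, -0.84 for CAVIN2, -0.87 for CYFIP2 and -0.87 for GALNT5. With that library, the same genes had -1.54, -0.57, -0.81, -0.99, -0.75, -0.72 and -0.75, and none passed. When each further library was left out in turn from the 11, INPP5D was called in 11 of 11 fits, AKAP9 in 10, CDKN1A in 7, CYFIP2 in 4 and THBD, CAVIN2 and GALNT5 in 3 each.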

How the results depend on the processing

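With all 12 libraries, leaving out each in turn gave 0 genes called higher and 0 to 7 called lower, the 7 only without knockout control replicate 2. Of the other settings, DESeq2 called 4 lower, no filter on low counts 12 lower and 1 higher, and voom with sample quality weights, added after seeing the data, 55 lower and 20 higher, where knockout control replicate 2 had a weight of 0.0622 and the others 0.401 to 2.47. Also added after seeing the data were combinations of 11 libraries with another choice: the replicate block gave 6 lower and 3 higher, RLE scaling 6 lower, DESeq2 37 lower and 16 higher, and voom 2 lower. Leaving out a further library gave 2 to 26 lower and 0 to 34 higher, 60 in all without wild type control replicate 1 and 33 without wild type bleomycin replicate 3. Replicate numbers did not visibly pair the samples. Of 18 same-numbered pairs 1 correlated above 0.1, and 1 of 12 libraries correlated best with its own number. Deviations within groups of 3 libraries cannot exclude a pairing. The replicate block with 12 libraries left the interaction at 0 calls, and gave 11 and 4 genes between genotypes in medium and with bleomycin, against 28 and 8 without the block, 209 and 88 by DESeq2, 321 and 81 with no filter and 10 and 12 by voom. Left-out libraries moved these counts from 0 to 168 and from 2 to 294, the calls of the bleomycin response of wild type cells from 6006 to 9556 and those of the bleomycin response of knockout cells from 5806 to 8205. Of 105 named genes, 14 turned sign without knockout control replicate 2, of which 6 had a value beyond its SE in either fit. Over the left-out libraries these ranged as follows: the interaction of CDKN2A (-0.73 to 0.14), the interaction of PPIF (-0.52 to 0.11), the interaction of RPL13A (-0.24 to 0.23), the interaction of EGFL7 (-0.20 to 0.26), the interaction of COL1A1 (-1.25 to 0.48) and the interaction of TMEM158 (-0.30 to 0.79, a further library left out included), the highest value of each coming without knockout control replicate 2. The cause was not tested beyond the change in samples, genes or test that each setting makes. The design resolves a gene's interaction to a median 95% half-width of 0.54 with 12 libraries and 0.36 with 11.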
